A study of Canis lupus familiaris with 15 samples.

Results

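PROS1, the gene of protein S, was followed across 3 canine mammary tumour cell lines. It was represented by 1 probe of a cDNA array with 22176 probes, and is 1 of the 5246 genes that could be named from 7694 of them. The gene was chosen by its ratios on these same arrays, which were among the largest, so they are given as a description with no test. The lines were P114, from an anaplastic mammary carcinoma, CMT-U335, from a primary mammary osteosarcoma, and CMT-U229, whose source was a benign mixed tumour. None of the lines had been treated, and all were harvested near confluence; each is a single cell line, so a tumour type is represented by 1 line. Every array carried RNA of a pair of lines in Cy3 and Cy5, and each of the 3 pairs had 5 arrays, so the lines closed a loop of 15 arrays. The 5 arrays are biological replicates in the labels, but the design text mentions dye swaps and at least 1 biological replicate. Some arrays may therefore share RNA, and p-values reflect only how far the arrays of a pair spread, which may be technical.

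Protein S is a secreted, vitamin K-dependent glycoprotein. In blood it is the cofactor with which activated protein C breaks down the activated clotting factors V and VIII, and part of it circulates bound to the complement regulator C4b-binding protein. Through its C-terminal domains it also binds the receptor tyrosine kinases TYRO3 and MERTK of the TAM family, while its amino-terminal Gla domain holds on to phosphatidylserine on dying cells, so that it bridges them to the cells that clear them. Liver cells supply most of the plasma protein, and endothelial cells, megakaryocytes and osteoblasts also make it.

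All values are log2 ratios of the first-named line over the second, turned so by the dyes of each array, and a value of -1 means that the first line had a lower signal by a factor of 2. The direction is likely and not settled, because the deposited values do not state their numerator and were read as Cy5 over Cy3, Cy5 being the first channel in the labels. If the numerator were Cy3, every higher value would be lower and the reverse. PROS1 had a single probe, and whether related transcripts also bound to it was not tested. The arrays measured RNA from whole cultures, so fewer cells with the transcript and less transcript per cell cannot be told apart. No spot intensities were used here, so how far any gene lay above background is unknown, and precision is limited by having 5 arrays a pair.

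In P114 against CMT-U335, the PROS1 ratio was strongly below 0 on every array. It stood at -3.08 in replicate 1, -3.60 in replicate 2, -3.73 in replicate 3, -2.70 in replicate 4 and -3.68 in replicate 5. No array came near 0, and replicates 1 and 4 were the least extreme. The mean was -3.36 ± 0.45 (SD, n = 5), a 10.2-fold lower signal in the carcinoma line, with a 95% interval from -3.92 to -2.80 that corresponds to 15.1-fold to 6.95-fold. PROS1 had the lowest mean of the 5246 genes in this pair, and 3 genes had a mean of larger size in the other direction. On single arrays it ranked between the 3rd and 10th lowest gene.

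CMT-U229 against CMT-U335 gave nearly the same picture. PROS1 stood at -3.42 in replicate 1, -3.44 in replicate 2, -3.27 in replicate 3, -2.74 in replicate 4 and -3.41 in replicate 5. Replicate 4 lay apart from the others, which were within a narrow band. The mean was -3.26 ± 0.30 (SD, n = 5), 9.55-fold lower in the line of the benign tumour, with a 95% interval from -3.62 to -2.89. This was the 4th lowest mean among the genes, and the rank on single arrays ran from the 4th to the 25th lowest.

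P114 and CMT-U229 did not differ beyond the spread of their arrays. The ratio was -0.02 in replicate 1, -0.38 in replicate 2, -0.42 in replicate 3, 0.47 in replicate 4 and 0.84 in replicate 5. Replicates 4 and 5 were above 0 and the other 3 below. The mean was 0.10 ± 0.55 (SD, n = 5), and its 95% interval from -0.58 to 0.78 allows a difference of up to 1.5-fold one way and 1.72-fold the other. The values of this pair and those of the other pairs did not overlap, as the plot of PROS1 on each array shows. PROS1 was chosen by these ratios, and the share of all genes with such a gap was not counted. The spread was wide for this array set, since 92.8% of genes had a smaller SD in this pair, against 90.3% in P114 against CMT-U335 and 73.3% in CMT-U229 against CMT-U335.

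**Figure D1:**
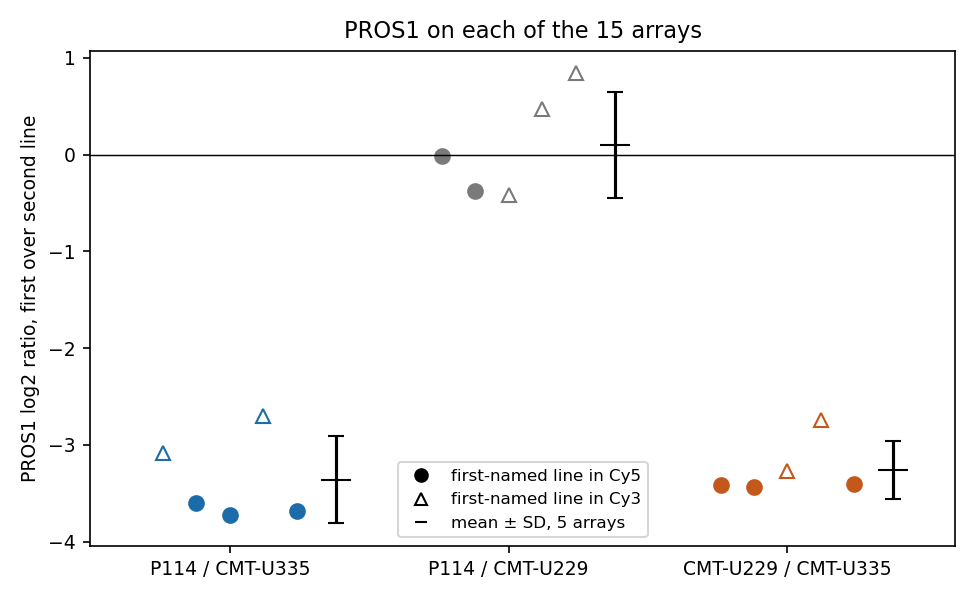
PROS1 log2 ratio (first over second line) on each of the 15 arrays, by pair of lines, with filled circles where the first-named line was in Cy5, open triangles where it was in Cy3, and bars for the mean ± SD of 5 arrays. All 10 arrays against CMT-U335 lie between -3.73 and -2.70, and the 5 arrays of P114 against CMT-U229 lie between -0.42 and 0.84.

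The 3 pairs together gave an order of the lines. A least squares fit of the 15 arrays, with the levels set to sum to 0, put PROS1 at 2.20 in CMT-U335, -1.09 in P114 and -1.12 in CMT-U229, with a residual SD of 0.43. P114 and CMT-U229 differed by 0.03 in this fit, within the spread, and CMT-U335 stood above each of them by about 10-fold (9.78-fold over P114 and 10-fold over CMT-U229). The loop could also be checked against itself. The direct ratio of CMT-U229 over CMT-U335 was -3.26, and the indirect one through P114 was -3.46, which differ by 0.20 ± 0.34 (SE). Over all genes the median size of this difference was 0.08, and 84.6% of genes had a smaller one.

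The dye order moved with part of the spread. With the first-named line in Cy5, the mean PROS1 ratio was -3.67 in P114 against CMT-U335 (3 arrays, -3.73 to -3.60), and with that line in Cy3 it was -2.89 (2 arrays, -3.08 to -2.70). In CMT-U229 against CMT-U335 the means were -3.42 over 3 arrays and -3.0 over 2. In P114 against CMT-U229 they were -0.20 over 2 arrays and 0.30 over 3. The ratio was therefore lower with the first line in Cy5 in every pair, by 0.78, 0.42 and 0.50 in turn, and the arrays of the orders overlapped only in P114 against CMT-U229. The median size of this difference over genes was 0.16, 0.18 and 0.18 in the same order, and 96.9%, 86.6% and 89.8% of genes had a smaller one. The mean of both dye orders was -3.28, -3.21 and 0.05, close to the plain means.

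Few genes reached ratios of this size. Next to PROS1 in P114 against CMT-U335 came CTSK, which encodes the collagen-degrading protease cathepsin K, at -3.29 ± 0.25 (limma SE, n = 5, adjusted p = 0.00019, limma). The mitochondrial folate enzyme gene ALDH1L2 (-2.93 ± 0.15) and SGCE, the gene of epsilon-sarcoglycan (-2.61 ± 0.11), followed. These 3 genes were picked by their ratios in P114 against CMT-U335, so the p-value there adds no support. They differed from PROS1 in the pair without CMT-U335. CTSK was higher in P114 than in CMT-U229 (0.64 ± 0.08, adjusted p = 0.0039, limma), and ALDH1L2 and SGCE were lower (-2.12 ± 0.12 and -1.01 ± 0.09). In CMT-U229 against CMT-U335, CTSK (-3.98), the collagen gene COL1A2 (-3.39) and CCDC80 (-3.36) lay below PROS1, and SPTAN1, TFPI2 and PLS3 came next above it at -3.22, -2.81 and -2.55.

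**Figure D2:**
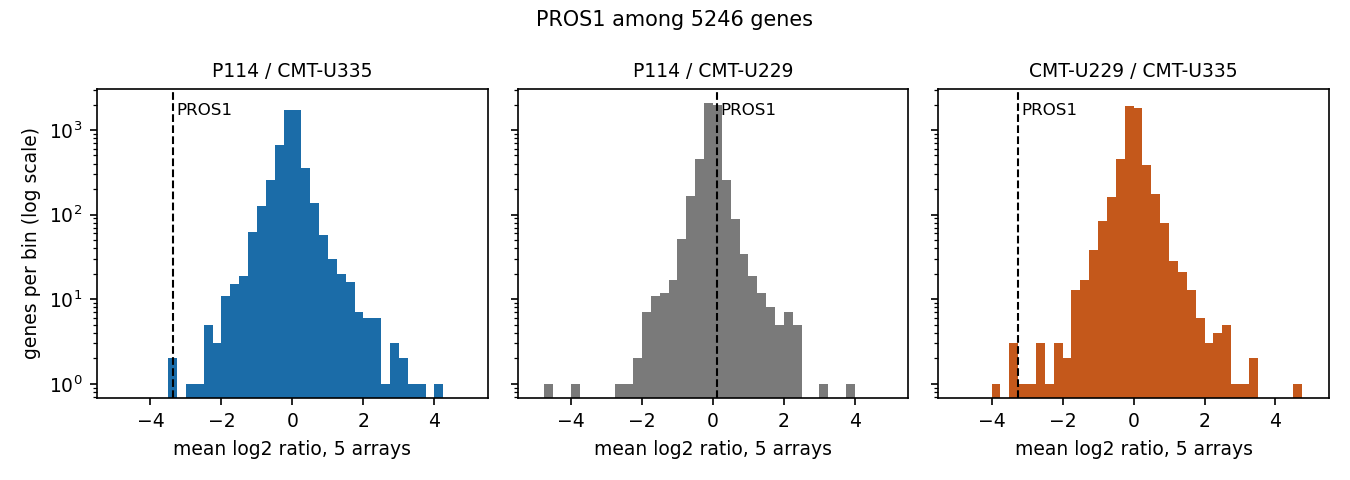
Histograms of the mean log2 ratio of 5246 genes in each pair (bins of 0.25, number of genes on a log axis), with the mean of PROS1 as a dashed line. PROS1 lies at the far lower end in both pairs with CMT-U335, at -3.36 and -3.26, and in the body of the distribution, at 0.10, in P114 against CMT-U229.

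The genes that act with protein S were read from lists, with a gene called when its limma p, adjusted over all genes by Benjamini-Hochberg, lay under 0.05. This call was made for 22.3% of all genes in P114 against CMT-U335 (7.89% higher and 14.4% lower in P114), for 7.30% in P114 against CMT-U229 (3.32% higher, 3.98% lower) and for 17.3% between CMT-U229 and CMT-U335 (8.77% higher, 8.58% lower). The counts of every list below are to be read beside these shares, and no list was tested against them. Of the 7 TAM receptors and ligands on the list, which include GAS6, AXL, TYRO3 and MERTK, 0 were among the named genes, so the receptors of protein S are not analysed here.

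Of 13 genes of the protein C system and other anticoagulants 6 were measured, and only TFPI2 was called. It was called lower in P114 against CMT-U335 and in CMT-U229 against CMT-U335, where 14.4% and 8.58% of all genes were called lower. A count of 1 in 6 is too small to be set apart from these shares. TFPI2 encodes a Kunitz-type inhibitor of serine proteases. In P114 against CMT-U335 it stood at -2.36, -1.54, -2.75, -2.42 and -3.18 in replicates 1 to 5, a mean of -2.45 ± 0.21 (limma SE, adjusted p = 0.000325, limma). In CMT-U229 against CMT-U335 it stood at -2.38, -3.13, -2.95, -2.65 and -2.94, a mean of -2.81 ± 0.12 (adjusted p = 5.3e-05, limma). All 10 arrays were below 0. Between P114 and CMT-U229 it was not called (0.35 ± 0.20, adjusted p = 0.423, limma). TFPI2 was thus, like PROS1, lower in P114 and CMT-U229 than in CMT-U335.

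The other anticoagulant genes stayed close to 0. PROC, the gene of protein C, for which protein S is the cofactor, was at 0.15 ± 0.08, 0.07 ± 0.08 and 0.07 ± 0.08 in P114 against CMT-U335, P114 against CMT-U229 and CMT-U229 against CMT-U335. C4BPB, the chain of C4b-binding protein that holds protein S, was at -0.02 ± 0.13, -0.08 ± 0.12 and 0.03 ± 0.16. TFPI, the tissue factor pathway inhibitor that protein S assists, was at -0.04 ± 0.11, -0.03 ± 0.14 and -0.16 ± 0.11. The serpin genes SERPINC1, which encodes antithrombin, and SERPINA5, which encodes the protein C inhibitor, lay between -0.02 and 0.08 in all pairs. None of these 5 was called in any pair. The list's median was -0.00, 0.01 and 0.00, beside -0.02, -0.01 and -0.01 for all genes.

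Of 20 genes of the clotting cascade 12 were measured. In P114 against CMT-U335, 1 was called higher and 1 lower, beside 7.89% and 14.4% of all genes. In P114 against CMT-U229, 1 was called lower, beside 3.98%. In CMT-U229 against CMT-U335, 1 was called higher and 1 lower, beside 8.77% and 8.58%. LMAN1, the cargo receptor that carries clotting factors V and VIII out of the endoplasmic reticulum, was lower in P114 (-0.66 ± 0.11, adjusted p = 0.00423, limma) and in CMT-U229 (-0.80 ± 0.11, adjusted p = 0.00386, limma) than in CMT-U335. Its partner MCFD2 was not called (-0.02 ± 0.09 and 0.24 ± 0.09). FGL2, a fibrinogen-like protein with prothrombinase activity, was high in CMT-U229. It stood at 2.91, 1.59, 2.02, 2.81 and 2.72 against CMT-U335 (mean 2.41 ± 0.20, adjusted p = 0.000548, limma) and at -1.98 ± 0.28 in P114 against CMT-U229 (adjusted p = 0.00793, limma). With arrays that look like dye swaps of the same RNA averaged as couples, leaving 3 values, the call between P114 and CMT-U229 was lost (adjusted p = 0.0935, limma). Its small ratio in P114 against CMT-U335 (0.28 ± 0.08, adjusted p = 0.0475, limma) lost the call when any of replicates 1 to 4 was left out, with adjusted p up to 0.143 in limma. FGL2 thus set CMT-U229 apart, the line in which PROS1 was as low as in P114. The fibrinogen chains FGA, FGB and FGG, the factors F9, F10 and F11, and VWF, KLKB1 and KNG1 were not called in any pair, with means from -0.29 to 0.18.

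In fibrinolysis 4 of 13 genes were measured. PLG, the gene of plasminogen, was higher in CMT-U229 than in CMT-U335 on all 5 arrays (2.87, 1.04, 1.22, 1.58 and 1.75, mean 1.69 ± 0.25, adjusted p = 0.00434, limma). Its calls in P114 against CMT-U335 (0.77 ± 0.18, adjusted p = 0.0213, limma) and P114 against CMT-U229 (-0.43 ± 0.08, adjusted p = 0.023, limma) were less firm. The former was lost without replicate 1, 3 or 4 and the latter without replicate 1, 3, 4 or 5, with adjusted p up to 0.0697 and 0.102 in limma. ANXA2 and S100A10, whose products form a plasminogen receptor, and ENO1 were not called in any pair.

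Protein S needs vitamin K for the carboxylation of its Gla domain, and 4 of 14 genes of the vitamin K cycle and of Gla proteins were measured. NQO1, a quinone reductase able to reduce vitamin K, was higher in P114 (1.58 ± 0.16, adjusted p = 0.000649, limma) and in CMT-U229 (1.49 ± 0.22, adjusted p = 0.00441, limma) than in CMT-U335, the direction opposite to PROS1. VKORC1, the vitamin K epoxide reductase that warfarin blocks, was at -0.02 ± 0.08, 0.29 ± 0.10 and -0.32 ± 0.11 in P114 against CMT-U335, P114 against CMT-U229 and CMT-U229 against CMT-U335. VKORC1, CALU and PRRG2 were not called in any pair. In the list for folding and export of proteins with EGF-like domains, 6 of 14 were measured. PDIA3, a disulphide isomerase, was higher in P114 (0.99 ± 0.13, adjusted p = 0.00179, limma) and in CMT-U229 (1.28 ± 0.13, adjusted p = 0.000996, limma) than in CMT-U335. SAR1B, a GTPase of the vesicles that leave the endoplasmic reticulum, was lower in P114 than in CMT-U335 (-0.48 ± 0.08, adjusted p = 0.00439, limma). No gene of these lists was called between P114 and CMT-U229.

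**Figure D3:**
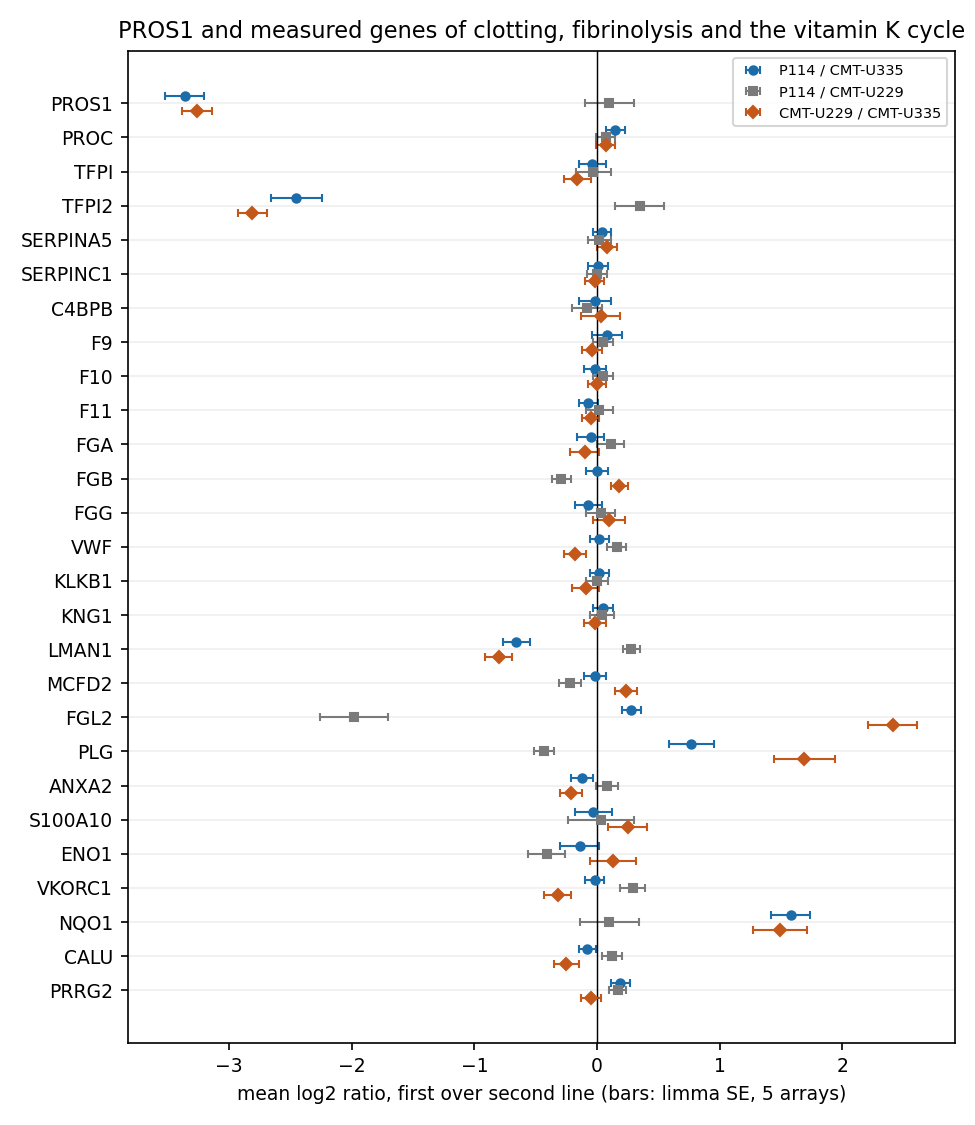
Mean log2 ratio with limma SE over 5 arrays for PROS1 and the measured genes of anticoagulation, clotting, fibrinolysis and the vitamin K cycle, with circles for P114 over CMT-U335, squares for P114 over CMT-U229 and diamonds for CMT-U229 over CMT-U335. PROS1 and TFPI2 (-2.45 and -2.81) lie far below 0 in both pairs with CMT-U335, whereas most other genes lie near 0.

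Clearance of dying cells, in which protein S serves as a bridge, was covered by 12 of 37 listed genes. In P114 against CMT-U335, 2 were called higher and 1 lower, beside 7.89% and 14.4% of all genes. In CMT-U229 against CMT-U335, 4 were called higher and 1 lower, beside 8.77% and 8.58%. In P114 against CMT-U229, 1 was called lower, beside 3.98%. The subunits of the integrin alpha-v beta-5, which binds another bridging protein, went opposite ways. ITGAV was higher in P114 (0.83 ± 0.10, adjusted p = 0.00141, limma) and in CMT-U229 (0.69 ± 0.10, adjusted p = 0.00325, limma) than in CMT-U335. ITGB5 was lower in P114 (-0.76 ± 0.14, adjusted p = 0.00783, limma) and in CMT-U229 (-1.26 ± 0.14, adjusted p = 0.00146, limma), on all 5 arrays of each pair.

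ANXA1, a phospholipid-binding protein of dying cells, was higher in P114 than in CMT-U335 (0.46 ± 0.09, adjusted p = 0.00952, limma). In CMT-U229 against CMT-U335, CALR, the chaperone calreticulin that marks cells for uptake, was higher (0.78 ± 0.11, adjusted p = 0.00432, limma, and 0.0542 with couples averaged), as was CD47, which holds phagocytes back (0.47 ± 0.07, adjusted p = 0.00588, limma). That CD47 value was 0.20 in the loop fit over 15 arrays, and its call was lost there and in the single fit over those arrays. GULP1, an adaptor of engulfment, was also higher in CMT-U229 than in CMT-U335 (0.29 ± 0.06, adjusted p = 0.022, limma) and was added to the named genes after its values were seen. CD47 was lower in P114 than in CMT-U229 (-0.47 ± 0.10, adjusted p = 0.0374, limma), a call lost without replicate 1, 2, 3 or 5 (adjusted p up to 0.118, limma) and in the loop fit, at -0.74. In P114 against CMT-U335 its arrays ran from -2.67 to 0.38. The medians of this list were 0.02, 0.02 and 0.04, beside -0.02, -0.01 and -0.01 for all genes. Of the listed regulators of protein S expression only SP1, STAT3 and FOXA2 were measured, and none was called.

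The likeness of other genes to PROS1 was measured as the uncentred correlation of their 15 log ratios, over the 270 other genes with a root mean square ratio of at least 1. The arrays share RNA sources, so this is a description. The median over these genes was -0.049, and 16 of them reached 0.95. The highest values belonged to NDUFAF2, an assembly factor of respiratory complex I (0.979), TFPI2 (0.977), the inositol phosphatase gene INPP5A (0.976), the ubiquitin ligase gene MARCHF3 (0.974), the tRNA methyltransferase gene TRMT5 (0.972) and RAP1B, a small GTPase (0.972). TFPI2 was the only one of the 6 with ratios near those of PROS1 in size. NDUFAF2 stood at -1.66 ± 0.28, -0.04 ± 0.18 and -1.38 ± 0.21 (SD) in P114 against CMT-U335, P114 against CMT-U229 and CMT-U229 against CMT-U335. The other 4 lay between -1.63 and -1.45 in the first of these pairs and between -1.39 and -1.20 in the last.

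The most opposite patterns belonged to KRT8, a keratin of simple epithelia (-0.965), and to the genes EIF3H (-0.963) and EIF3E (-0.961) of a translation initiation factor. KRT8 was higher in P114 (2.46 ± 0.20, adjusted p = 0.000262, limma) and in CMT-U229 (2.56 ± 0.23, adjusted p = 0.000673, limma) than in CMT-U335, and was not called between P114 and CMT-U229 (-0.31 ± 0.19, adjusted p = 0.473, limma). These 3 genes were picked here by the same ratios, so the p-values of KRT8 add no support to its opposite pattern.

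**Figure D4:**
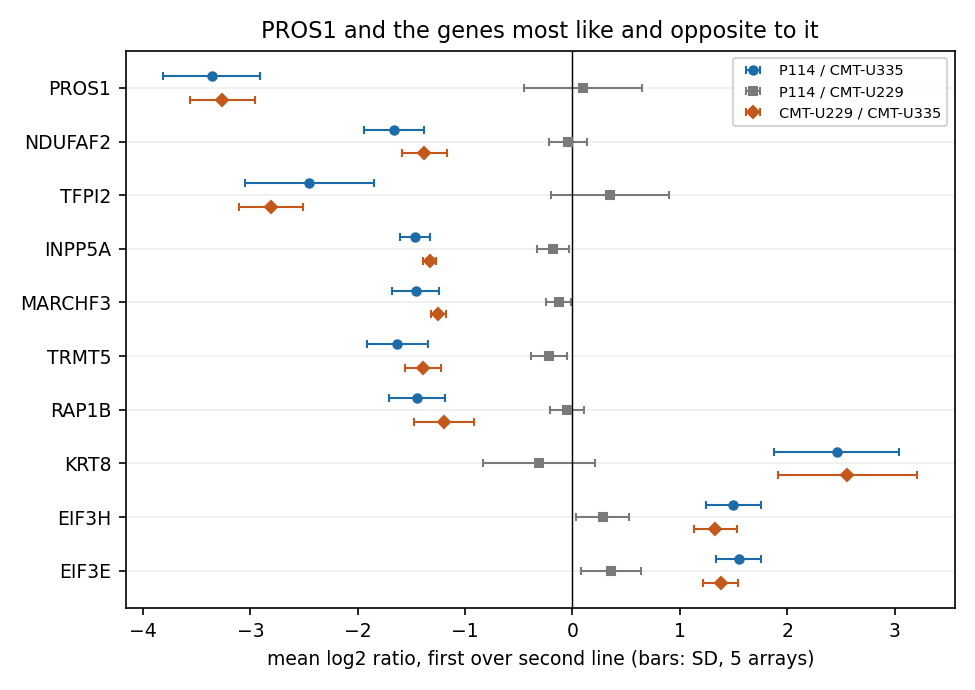
Mean log2 ratio ± SD over 5 arrays in the 3 pairs for PROS1, the 6 genes with the highest and the 3 with the lowest uncentred correlation with it, with circles for P114 over CMT-U335, squares for P114 over CMT-U229 and diamonds for CMT-U229 over CMT-U335. PROS1 has the longest distance from 0 in the pairs with CMT-U335 (-3.36 and -3.26), and the squares of all 10 genes lie between -0.31 and 0.36.

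In the RefSeq gene table of the dog assembly UU_Cfam_GSD_1.0, PROS1 lies on chromosome 33, near its start in gene order. Its nearest measured neighbours did not share its ratios, but no protein-coding gene directly next to it was measured. In the order of protein-coding genes, EPHA3 and NSUN3 lie 3 places from it. CRYBG3 lies 8, RIOX2 9, CLDND1 28 and ST3GAL6 30 places away. EPHA3, an ephrin receptor gene and the only measured gene before it, was at 0.17 ± 0.08 in P114 against CMT-U335 and -0.01 ± 0.08 in CMT-U229 against CMT-U335. NSUN3, a mitochondrial RNA methyltransferase gene and the first measured one after it, was at -0.03 ± 0.12 and -0.10 ± 0.08. CRYBG3 (-0.04 and -0.11), CLDND1 (0.32 and 0.24) and ST3GAL6 (-0.26 and -0.24) were not called either. RIOX2, a histidine hydroxylase, was lower in both pairs, at -0.35 ± 0.10 (adjusted p = 0.0465, limma) and -0.47 ± 0.08 (adjusted p = 0.00886, limma). The former call was lost without replicate 2, 3, 4 or 5 (adjusted p up to 0.134, limma) and with array medians set to 0, and the latter with couples averaged (adjusted p = 0.0538, limma). None of these 6 neighbours was called between P114 and CMT-U229.

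Over the whole chromosome, a count made after the values were seen, 52 measured genes beside PROS1 held 19 called lower and 2 called higher in P114 against CMT-U335. That is 36.5% lower, against 14.4% of all genes, and the median ratio was -0.19, beside -0.02. In CMT-U229 against CMT-U335, 12 were called lower and 2 higher (23.1% lower, against 8.58% of all genes), with a median of -0.17 beside -0.01. In P114 against CMT-U229, 5 were called lower and 2 higher (9.62% lower, against 3.98%), but without replicate 1, 2 or 5 just 1 was called lower, a share of 1.92% that was near that of all genes (1.91%, 2.48% and 2.34%). With couples averaged, 14 genes were called lower in P114 against CMT-U335 (26.9%, against 9.84% of all genes), 8 in CMT-U229 against CMT-U335 (15.4%, against 3.45%) and 1 in P114 against CMT-U229 (1.92%, against 0.705%). Among the lowest, picked for their ratios, were CCDC80, NXPE3 and GAP43, at -2.05, -1.84 and -1.24 in P114 against CMT-U335. ITGB5 and CD47 also lie on this chromosome, as does MYLK, the myosin light chain kinase gene of contractile cells, which was higher in CMT-U229 than in CMT-U335 (2.22 ± 0.07, adjusted p = 2.96e-05, limma).

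**Figure D5:**
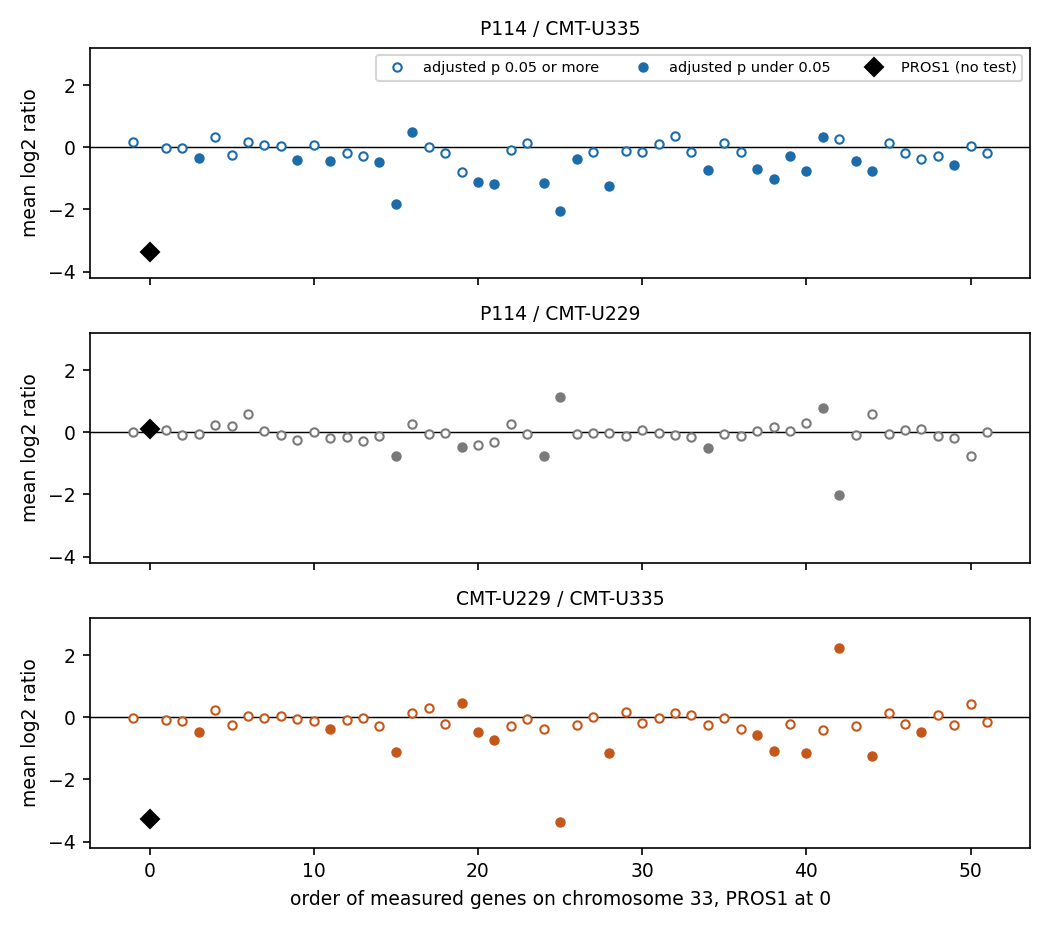
Mean log2 ratio over 5 arrays of the measured genes of chromosome 33 in gene order, with PROS1 as a black diamond at 0 (no test), filled circles for genes with adjusted p under 0.05 (limma) and open circles for the rest, by pair. The measured genes nearest to PROS1 lie near 0 in the pairs with CMT-U335, and most called genes further along lie below 0.

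The lines also differed in markers of tissue types, in both directions and also between P114 and CMT-U229, where PROS1 was not apart. Of 5 measured epithelial markers 3 were called higher and 1 lower in P114 against CMT-U335, and 3 higher in CMT-U229 against CMT-U335, among them EPCAM (3.55 ± 0.15 and 1.78 ± 0.14), KRT8 and KRT18 (3.48 ± 0.19 and 0.79 ± 0.07). The lower one was TJP1, a tight junction gene (-0.35 ± 0.08, adjusted p = 0.0204, limma), whose call was lost without replicate 2, 3 or 5 (adjusted p up to 0.0722, limma). In P114 against CMT-U229 EPCAM and KRT18 were called higher. Of 6 mesenchymal markers 1 was higher and 2 lower in P114 against CMT-U335, and 4 were lower in CMT-U229 against CMT-U335, including S100A4 (-1.58 ± 0.19) and FBLN2 (-1.47 ± 0.14). In P114 against CMT-U229 2 of them were higher, S100A4 (1.54 ± 0.08) and DCN (0.90 ± 0.21, adjusted p = 0.0461, limma), the latter lost without replicate 2, 3, 4 or 5 (adjusted p up to 0.139, limma). Of 4 bone markers SPP1, which encodes osteopontin, was lower in the osteosarcoma line than in P114 (4.12 ± 0.18) and CMT-U229 (2.58 ± 0.34), the collagen gene COL1A2 was higher there (-1.39 ± 0.14 and -3.39 ± 0.22), and ALPL was not called. SPARC was higher in P114 than in CMT-U335 (0.56 ± 0.17, adjusted p = 0.0485, limma), a call lost without replicate 2, 3, 4 or 5 (adjusted p up to 0.125, limma). COL1A2 and SPARC were higher in P114 than in CMT-U229 (2.06 ± 0.30 and 1.33 ± 0.21), both lost with couples averaged (adjusted p = 0.0942 and 0.114, limma). Of these 4 markers only COL1A2 was thus called higher in CMT-U335, while SPP1 and, less firmly, SPARC were lower there than in P114. Whether CMT-U335 has bone traits was not tested. The part of these marker differences in the PROS1 ratios was not tested.

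Of 6 myoepithelial markers 2 were called higher and 1 lower in P114 against CMT-U335, 2 in each direction in P114 against CMT-U229, and 1 higher and 2 lower in CMT-U229 against CMT-U335. The laminin gene LAMA3 was highest in P114, at 1.58 ± 0.24 over CMT-U335 and 2.47 ± 0.29 over CMT-U229, the latter call lost with couples averaged (adjusted p = 0.0785, limma). CAV1 was also highest in P114, at 1.22 ± 0.07 over CMT-U229, a call kept with couples averaged (adjusted p = 0.0181, limma). Its call over CMT-U335 (0.41 ± 0.09) was lost without replicate 2, 3 or 4 (adjusted p up to 0.0629, limma). In CMT-U229 against CMT-U335 CAV1 was called lower (-0.72 ± 0.09). MYLK and TPM2 went the other way in P114 against CMT-U229, at -2.03 ± 0.10 and -0.75 ± 0.11. That call of TPM2 was lost with couples averaged (adjusted p = 0.0881, limma). TPM2 was also lower in P114 than in CMT-U335 (-0.90 ± 0.12). Few hepatocyte, endothelial and leukocyte markers were called. Of 8 hepatocyte markers, ALB and TTR among them, HPX alone was called, in CMT-U229 against CMT-U335 (0.30 ± 0.07, adjusted p = 0.0335, limma). That call was lost without replicate 2, 3, 4 or 5 (adjusted p up to 0.119, limma). None of the 3 endothelial markers PECAM1, TEK and TIE1 was called in any pair, and their means ran from -0.02 to 0.12. Of 6 leukocyte markers CD14 alone was called, higher in P114 than in CMT-U229 (0.50 ± 0.07, adjusted p = 0.00626, limma, and 0.0611 with couples averaged) and than in CMT-U335 (0.36 ± 0.10, adjusted p = 0.0451, limma), the latter lost without replicate 2, 3, 4 or 5 (adjusted p up to 0.13, limma).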

How the data were processed

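Total RNA of each line went through T7 amplification that built in aminoallyl groups, to which Cy3 or Cy5 was attached, per the labels' protocols. The deposited log2 ratios of the 2 dyes had been normalized and log transformed by the authors, per the series design text. How they normalized is not given in the sources used here, nor is the log base. The base was read as 2, since the value farthest from 0, 12.43 in size, then means 5511-fold, while the natural log would make it 249732-fold, more than the 65536 steps of a 16-bit scanner. Array medians lay from -0.0067 to 0.0134. The table of 22176 probes had 2 missing values and 0 columns of other samples. By the platform annotation 7694 probes had 1 symbol, 0 had several, and the 14482 others stay unnamed. Entrez identifiers in the RefSeq table brought 7340 of these symbols up to date; 354 stayed as they were.

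The dyes of each array set whether its sign was turned. In each pair, arrays of opposite dye order correlated over all probes, as deposited, at -0.35 to -0.23 (P114 against CMT-U335), -0.22 to -0.09 (P114 against CMT-U229) and -0.34 to 0.0001 (CMT-U229 against CMT-U335). Where a gene had several probes, their mean was used, and genes with fewer than 3 values in a pair were dropped. Limma 3.58.1 in R 4.3.3 tested the 5 arrays of a pair alone, two-sided, with lmFit and eBayes. Limma took the place of the SAM test that the design text names. PROS1 was described by its mean, SD and 95% t interval over 5 arrays, which takes the arrays as independent. On simulated arrays of 5246 genes for P114 against CMT-U229, limma recovered 50% of genes changed by a log2 of 0.5, 88% by 1 and 100% by 2 or 3, with 15 of 184 calls false. The simulated arrays were independent, with normal noise and no dye effect or shared RNA. These rates therefore do not cover arrays that share RNA.

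The gene, the lists and the rule for named genes were chosen with earlier results of these data known. The rule took up to 4 called members per list and pair, or 2 as values where none was called. It also took all measured TAM and protein C genes, the 6 genes most like and 3 most unlike PROS1, up to 5 measured neighbours on each side, and the 3 genes ranked next to it. Alternatives covered centring, scale normalization, missing values, a dye term, fits over 15 arrays, the replicate number as a block, apparent dye swap couples (taken from earlier results) averaged to 3 values, thresholds, single probes, the median, the opposite direction and leaving out each array. Sequences of the probe and of protein S are not used here.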

Additional observations from a re-analysis of the deposited data

Results flagged for a closer look

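In 145 values of PROS1 and the genes that the naming rule picked, each over 5 arrays, a single array was looked for that lay far from the other 4. Other genes mentioned above were not all screened. KLKB1, for example, was at 0.35 in replicate 5 of P114 against CMT-U229, with the others from -0.15 to -0.05. Chance gives about 1 such array in 20 groups, and 4 were found in the 145 screened values, which is below that rate. PROS1 in CMT-U229 against CMT-U335 was at -2.74 in replicate 4, with the others from -3.44 to -3.27. Replicate 4 had the first-named line in Cy3, as did replicate 3 at -3.27. FOXA2, a liver transcription factor gene, was at -2.62 in replicate 1 of P114 against CMT-U335, with the others from -0.25 to 0.58. The neighbours of PROS1 on chromosome 33 gave the last cases, both in CMT-U229 against CMT-U335. EPHA3 was at 0.29 in replicate 1, with the others from -0.12 to -0.05, and ST3GAL6 was at 0.48 in replicate 3, with the others from -0.50 to -0.38.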

How the results depend on the processing

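Under the alternatives other than the turned direction, PROS1 ran from -3.60 to -3.12 in P114 against CMT-U335. It ran from -3.41 to -3.21 between CMT-U229 and CMT-U335, and from -0.09 to 0.23 in P114 against CMT-U229, where the sign was not settled. All lay within 1 SD of the plain mean. The median, a left-out array, the dye term and averaged couples reuse the same array values and could not exceed that bound. Their staying within it therefore shows nothing. Centring, scale normalization and the loop fit could have exceeded it. They gave -3.32, -3.12 and -3.29 in P114 against CMT-U335, and -3.25, -3.32 and -3.32 in CMT-U229 against CMT-U335. In P114 against CMT-U229 they gave 0.12, 0.09 and 0.03. Read as Cy3 over Cy5, the deposited values would give 3.36 and 3.26 in the pairs with CMT-U335. The closure of the loop ran from 0.11 to 0.20 before turning. With the replicate number as a block, the PROS1 means were the plain ones, -3.36, 0.10 and -3.26. They had to be, since every pair holds each replicate number once. That block gave 1172 called genes in P114 against CMT-U335, 515 in P114 against CMT-U229 and 920 in CMT-U229 against CMT-U335, where each pair alone gave 1169, 383 and 910. It ended the calls of FGL2 in P114 against CMT-U335 (adjusted p = 0.426, limma), of PLG and CD47 in P114 against CMT-U229 (0.32 and 0.486) and of CD47 and HPX in CMT-U229 against CMT-U335 (0.392 and 0.0662), and of no other named gene. Deviations of same-numbered arrays of different pairs correlated over genes at -0.25 to 0.33 (15 couples, median -0.02). Those of arrays with different numbers correlated at -0.46 to 0.41 (60 couples, median 0.00). Shared RNA would raise the correlation where the shared line is named in the same place, and lower it otherwise. These pooled values therefore cannot tell whether arrays of the same number share RNA. The numbers were not taken as pairing. As PROS1 had 1 probe, its probes could not be compared.

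Counts of called genes moved with the setting. In P114 against CMT-U335 a loop fit gave 1757 and a threshold of 0.01 gave 642. In P114 against CMT-U229 one fit over 15 arrays gave 650, the loop fit 1056, averaged couples 79, single probes 582, and thresholds of 0.01 and 0.10 gave 159 and 578. In CMT-U229 against CMT-U335 the loop fit gave 1445, averaged couples 410 and the threshold of 0.01 gave 470. Leaving out 1 array gave 835 to 1031, 202 to 408 and 571 to 863 in the order P114 against CMT-U335, P114 against CMT-U229 and CMT-U229 against CMT-U335. The fall in P114 against CMT-U229 followed the removal of replicate 1, 2, 3 or 5, and the lowest counts in CMT-U229 against CMT-U335 that of replicate 2 or 5. Among the named genes, averaged couples ended 4 of 35 calls in P114 against CMT-U335, 9 of 14 in P114 against CMT-U229 and 3 of 31 in CMT-U229 against CMT-U335. Averaging leaves 3 values per pair.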
